A study of Mus musculus with 44 samples.

Results

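The 4 opioid receptor genes of the mouse, Oprk1, Oprm1, Oprd1 and Oprl1, were followed through the nucleus accumbens of animals given the retinoid X receptor alpha (RXRa) by virus. They were found by gene symbol, through Ensembl identifiers, among the 55487 gene rows that both count tables share, and all 4 were present and passed the filter on low counts in both tables. RXRa is a nuclear receptor that binds DNA as a partner of other nuclear receptors. One table held 8 libraries of whole accumbens tissue from males, 4 infused with HSV-GFP and 4 with HSV-RXRa-GFP, a herpes simplex virus vector. The other held nuclei sorted as D1 or D2, the striatal projection neurons named for the dopamine receptor genes Drd1 and Drd2. Those animals received AAV9-CAG-DIO-EGFP or AAV9-CAG-DIO-EGFP-P2A-RXRa, an adeno-associated virus whose insert needs Cre recombinase to be read. Libraries with a group numbered 5 EGFP and 4 RXRa in D1 females, 5 and 4 in D1 males, 4 and 4 in D2 females, and 5 and 4 in D2 males. All infused animals received a virus with a fluorescent protein gene, controls included. The labels give no strain, Cre driver, age or time after infusion, and do not say whether animals were pooled or whether replicates are separate animals, so the p-values measure the spread between libraries.

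Opioid receptors are G protein-coupled receptors that couple to inhibitory Gi/o proteins. When a peptide binds, they lower adenylyl cyclase activity, open GIRK potassium channels and close calcium channels, and receptor kinases and arrestins then switch them off. Oprm1 encodes the mu receptor, the main target of morphine, Oprd1 the delta receptor and Oprk1 the kappa receptor, while Oprl1 encodes the related nociceptin receptor, which binds classical opioids poorly. In the striatum, D2 neurons make enkephalin from Penk, D1 neurons make dynorphin from Pdyn, and dense mu receptor is a classical mark of the striosomes, or patches.

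In GENCODE M21 on GRCm38, Oprk1 (ENSMUSG00000025905) lies on chromosome 1 from 5588466 to 5606131, on the plus strand, and Oprm1 (ENSMUSG00000000766) on chromosome 10 from 6758506 to 7038198, on the plus strand. Oprd1 (ENSMUSG00000050511) lies on chromosome 4 from 132110726 to 132144486, on the minus strand, and Oprl1 (ENSMUSG00000027584) on chromosome 2 from 181715016 to 181720985, on the plus strand. Their gene bodies differ greatly in length, at 279.69 kb for Oprm1, 33.76 kb for Oprd1, 17.67 kb for Oprk1 and 5.97 kb for Oprl1. Annotated exons cover 2.87% of the body of Oprm1, 11.9% of Oprd1, 51.8% of Oprk1 and 62.9% of Oprl1. Ipcef1, on the opposite strand, overlaps Oprm1 over 152.4 kb, with a longest shared exon stretch of 96 bp, and Gm10945, also opposite, over 3256 bases. The use of strand in counting is not given in the sources used here, so counts of Oprm1 are uncertain. No other gene overlapped Oprk1, Oprd1 or Oprl1.

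Promoter windows of RefSeq on GRCm38.p6, 250 bases before to 50 after a transcription start, were matched for Oprl1 (3 windows), Oprm1 (3 windows) and Oprd1 (1 window). They are shown because RXR and its partners bind pairs of a short half-site, and each window was searched on both strands for its common form AGGTCA. The variant GGGTCA was searched too, as were the variant AGTTCA and the variant GGTTCA, which share letters but cannot match at the same place. Capitals mark the matches, and each sequence runs 5′ to 3′ on the strand of its gene.

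Oprl1, chr2:181715098-181715397, plus strand: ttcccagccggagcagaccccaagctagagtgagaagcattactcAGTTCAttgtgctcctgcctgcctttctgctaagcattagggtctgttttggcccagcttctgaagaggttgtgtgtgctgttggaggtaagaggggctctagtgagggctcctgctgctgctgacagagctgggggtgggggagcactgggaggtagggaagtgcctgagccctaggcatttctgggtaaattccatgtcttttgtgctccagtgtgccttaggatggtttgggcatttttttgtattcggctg

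Oprm1, chr10:6788320-6788619, plus strand: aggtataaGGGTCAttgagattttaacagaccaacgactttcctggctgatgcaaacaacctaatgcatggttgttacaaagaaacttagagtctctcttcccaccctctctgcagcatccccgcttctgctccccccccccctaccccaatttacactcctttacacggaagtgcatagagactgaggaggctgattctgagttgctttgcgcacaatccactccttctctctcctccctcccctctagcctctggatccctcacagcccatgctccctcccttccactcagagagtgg

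Oprd1, chr4:132144437-132144736, minus strand: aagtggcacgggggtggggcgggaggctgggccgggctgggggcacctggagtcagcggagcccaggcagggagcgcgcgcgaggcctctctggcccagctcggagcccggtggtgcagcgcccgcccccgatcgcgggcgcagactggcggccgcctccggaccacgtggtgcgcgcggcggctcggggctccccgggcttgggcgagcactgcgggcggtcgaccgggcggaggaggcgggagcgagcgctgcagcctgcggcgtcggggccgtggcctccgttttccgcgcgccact

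In the Oprl1 window shown, AGTTCA starts 205 bases before the transcription start, while the other two Oprl1 windows, 1 of them at the first principal start, held no match. In the Oprm1 window shown, GGGTCA starts 242 bases before it; a further Oprm1 window, shifted by a few bases, holds the same letters. That Oprm1 start lies 29977 bases downstream of the nearest start of a transcript tagged as principal in GENCODE, whose own window held no match. The tag does not tell which start is used in the accumbens, and this was not tested. The Oprd1 window held no match, and 79.3% of its bases are G or C, with 43 CpG pairs, against 53.7% and 2 in the Oprl1 window and 52.0% and 4 in the Oprm1 window. Across the 32851 promoter windows of the table, 43.7% hold at least 1 of the 4 half-sites, and 16.3% hold AGGTCA itself. A pair of half-sites in the same direction with 1 to 5 bases between them was in 0.7% of all windows and in none of the 7 receptor windows.

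Bulk libraries held 21567565 to 29167142 counts each, and the 35 sorted libraries with a group held 12211655 to 27757463. The vector's RXRa sequence had 0 counts in the 4 bulk GFP libraries, which allows up to 0.106 to 0.11 counts per 1e6 (CPM), and 22.1 to 38.7 CPM in bulk RXRa. In sorted libraries it had 0 to 17 counts under EGFP and 45.4 to 557 CPM under RXRa. The sort separated its defining genes in control animals: Drd2 was 11.1-fold higher in D2 than in D1 nuclei and Drd1 75.5% lower (edgeR adjusted p 1.75e-17 and 2.85e-06). Bulk counts came from poly(A)-selected RNA and sorted counts from ribosomal-RNA-depleted total RNA, so levels were compared within a table only. The sorted libraries held counts in genes at 0 in all 8 bulk libraries. These silent genes, as they are called here, were taken on the autosomes, protein-coding and 5 kb or longer, 1576 in all. Over them the mean count of the 35 sorted libraries followed gene-body length (r = 0.763 across genes on a log scale). It did not follow exon length (r = 0.0608). Both values describe the counts and have no replicates. Their median CPM per kb of gene body, the silent-gene density, is used below as the background of each sorted library.

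In bulk accumbens, the nociceptin receptor gene Oprl1 had the highest level per kb of exon of the 4 and the mu receptor gene Oprm1 the lowest. Oprl1 lay between 8.42 and 11.5 CPM per kb of exon over the 8 libraries, above every value of the other receptors. Oprd1 lay between 4.99 and 7.38 and Oprk1 between 4.51 and 6.28 on the same scale, so these neighbours in the order overlapped. Oprm1 lay between 0.622 and 1.25 CPM per kb of exon, below every value of the others.

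The bulk comparison asks what RXRa does to the tissue as a whole, and none of the 4 receptor genes was called by edgeR's quasi-likelihood test (adjusted p under 0.05), where 3.7% of 18579 genes were called and 21.5% had an unadjusted p under 0.05. Groups did not overlap in 13.2% of genes, and in all 4 receptor genes they did. The number of genes called, 687, depended on single libraries: it was 9 when GFP 4 was left out, 175 for RXRa 4, 243 for GFP 2, 292 for RXRa 3, 333 for RXRa 2 and 402 for GFP 3. In whole tissue, fewer cells of a type and less RNA per cell cannot be told apart.

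Oprm1 had the largest difference of the 4. Its GFP libraries had 9.16, 7.10, 6.14 and 10.1 CPM and its RXRa libraries 5.00, 5.33, 5.30 and 6.52 CPM. Of the RXRa libraries, 3 lay below every GFP library, and RXRa 4 lay above GFP 3. The GFP mean was 8.12 ± 1.81 CPM and the RXRa mean 5.54 ± 0.673 CPM (SD, n = 4), and the log2 fold change, -0.55 (SE 0.17), missed the threshold (edgeR adjusted p 0.106). These levels rest on 115 to 268 counts a library. DESeq2 called the difference (log2 fold change -0.54, adjusted p 0.0411), as did the edgeR fit with 1 surrogate variable (-0.51, adjusted p 0.033).

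Oprk1, the dynorphin receptor gene, had 42.0, 52.5, 53.5 and 57.5 CPM under GFP and 46.6, 42.2, 43.3 and 41.2 CPM under RXRa. GFP 1 sat among the RXRa libraries, and the other three GFP libraries lay above all of them. The log2 fold change was -0.25 (SE 0.09, edgeR adjusted p 0.17). It was -0.33 (adjusted p 0.0355) without GFP 1 and -0.26 (adjusted p 0.0466) with 1 surrogate variable.

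Oprl1 had 38.7, 34.4, 43.0 and 36.7 CPM under GFP and 39.6, 31.6, 36.8 and 33.5 CPM under RXRa. Oprd1, which binds enkephalin, had 22.3, 23.1, 26.6 and 28.5 CPM under GFP and 29.7, 25.1, 27.9 and 20.1 CPM under RXRa. Both sets of libraries were mixed. The log2 fold change was -0.11 (SE 0.09, edgeR adjusted p 0.518) for Oprl1 and 0.03 (SE 0.13, edgeR adjusted p 0.921) for Oprd1, whose sign turned without GFP 1 (-0.02), GFP 2 (-0.01), RXRa 1 (-0.04) or RXRa 3 (-0.01).

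**Figure D1:**
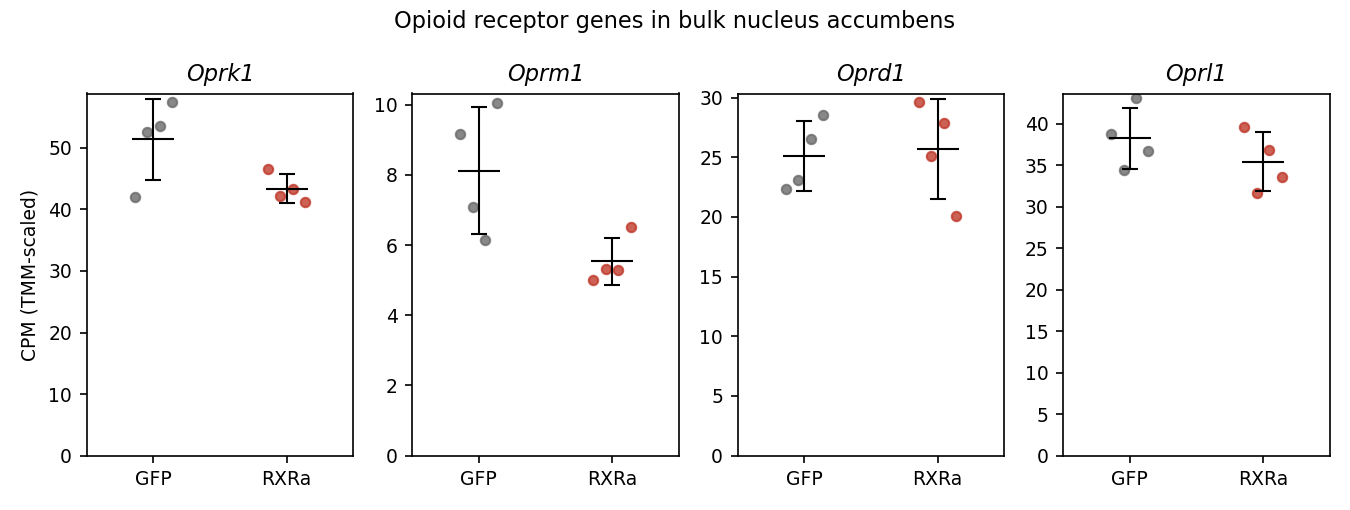
CPM of each receptor gene (y axes, each from 0 with its own range, TMM-scaled) in the 8 bulk libraries, by vector (x axis). Points are libraries and bars the mean ± SD of 4; the RXRa libraries of Oprm1 sit between 5.00 and 6.52 CPM and those of GFP between 6.14 and 10.1 CPM.

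Summed marker genes of other cells and regions moved among the same libraries, and no marker of any list was at 0 in every library of a group. The 4 markers of striatal projection neurons summed to 2478 to 2834 CPM under GFP and 2163 to 2555 CPM under RXRa, and the 4 patch markers to 252.1 to 311.6 and 236.8 to 277.9 CPM. The 5 D2 neuron markers summed to 1642 to 1946 CPM under GFP and 1503 to 1675 CPM under RXRa. All 5 had log2 fold changes below 0, between -0.39 (Gpr6) and -0.18 (Penk), and Gpr6 was called lower (edgeR adjusted p 0.0385). The other marker calls were 1 of 4 projection neuron markers, lower, and 1 of 4 astrocyte markers, higher. Over all genes, 3.01% were called higher and 0.689% lower. The 3 matrix markers summed to 655.7 to 742.9 CPM under GFP and 564.9 to 655.5 CPM under RXRa, ranges that did not overlap but nearly met. Of single genes, 13.2% had groups without overlap. Of the matrix markers 0 of 3 were called, and 1 had a log2 fold change above 0. Oligodendrocyte markers summed to 3923 to 4477 CPM under GFP and 2373 to 4036 CPM under RXRa. The 4 cortical excitatory markers ranged from 7.01 to 677.8 CPM under GFP and from 63.9 to 503.1 CPM under RXRa, so libraries differed in cortical signal within each group. The part of these differences in the receptor values was not tested.

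In sorted nuclei levels were taken per kb of gene body, because counts there followed its length. Over 35 libraries Oprk1 had 1.53 ± 0.42 CPM per kb of gene body, Oprl1 1.39 ± 0.317, Oprd1 0.728 ± 0.141 and Oprm1 0.566 ± 0.0492 (SD, n = 35). Oprk1 ranged from 0.759 to 2.76 and Oprl1 from 0.959 to 2.45 CPM per kb, so they overlapped, as did Oprd1 (0.476 to 1.03) and Oprm1 (0.510 to 0.736).

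Set against the silent genes, the 4 receptors fell into different ranges. The mean density of Oprk1 was 3.00 times the median silent gene, above 99.9% of the 1576 silent genes, and that of Oprl1 was 2.72 times, above 99.8%. Oprd1 stood at 1.44 times, above 90.9% of silent genes. Oprm1 stood at 1.12 times, above 66.6% of them and between their quartiles, 0.39 and 0.603 CPM per kb. A gene of its length at the silent density would have 139.3 CPM, of the 157.7 CPM measured on average (scaled by library totals), while Oprk1 would have 8.80 of 26.7, Oprd1 16.8 of 24.5 and Oprl1 2.97 of 8.18. Only 27 silent genes exceed 100 kb, and 92.6% of them had a lower density than Oprm1. For comparison, Drd2 stood at 13.1 times the median silent gene.

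The background itself differed between the groups. The silent-gene density was 0.529 ± 0.0466 CPM per kb (SD, n = 10) in D1 EGFP and 0.466 ± 0.0701 (SD, n = 8) in D1 RXRa, 0.551 ± 0.0258 (SD, n = 9) in D2 EGFP and 0.432 ± 0.0889 (SD, n = 8) in D2 RXRa. Its log2 difference, RXRa against EGFP, was -0.19 in D1 and -0.38 in D2 (exact two-sided permutation within sex, p = 0.0381 and 0.00136). D2 nuclei did not pass that test against D1 nuclei under EGFP (0.06, exact permutation p = 0.213).

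In D1 nuclei, RXRa against EGFP, none of the 4 receptor genes was called by edgeR. No gene of 43902 tested was called in this comparison (0% of genes), by edgeR or by DESeq2, and 3518 (8.01%) had an unadjusted p under 0.05; within D1 females and males the share was 6.28% and 3.02%. Oprk1 had 18.5, 23.3 and 33.5 CPM (lowest, median, highest of 10) under EGFP and 23.5, 29.8 and 34.6 CPM (of 8) under RXRa. All 8 RXRa libraries lay above the EGFP median, but the ranges overlapped, and the log2 fold change was 0.24 (SE 0.15, edgeR adjusted p 0.681). Oprl1 had 5.98, 7.32 and 8.86 CPM under EGFP and 6.99, 8.16 and 10.9 CPM under RXRa, and its log2 fold change was 0.17 (SE 0.12, edgeR adjusted p 0.703). Oprd1 had 19.2, 21.4 and 23.4 CPM under EGFP and 16.1, 21.4 and 23.5 CPM under RXRa, so its medians hardly differed. Oprm1 had 143.3, 152.3 and 169.9 CPM under EGFP and 142.6, 154.8 and 176.6 CPM under RXRa. Their log2 fold changes were -0.04 (SE 0.07, edgeR adjusted p 0.87) for Oprd1 and 0.06 (SE 0.05, edgeR adjusted p 0.754) for Oprm1. The sign turned for Oprm1 with library totals only (-0.01), for Oprl1 with the silent-gene density as a covariate (-0.003) and for Oprd1 without male RXRa 1 (0.004).

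In D2 nuclei the kappa, delta and nociceptin receptor genes were called higher with RXRa, 3 of 4 members, where 14.9% of 43902 genes were called higher and 7.14% lower, and 37.1% had an unadjusted p under 0.05. The EGFP and RXRa libraries overlapped for all 4 (groups did not overlap in 0.0638% of genes). With library totals in place of TMM the same comparison called 2057 genes higher and 9334 lower, and the median log2 fold change over all genes moved from -0.04 to -0.20. With the silent-gene density of each library as a covariate no gene was called by edgeR, and 1347 had an unadjusted p under 0.05. There the 4 receptors had log2 fold changes from 0.05 to 0.15, each with an adjusted p of 1. The density itself differed with the vector in D2 (log2 difference -0.38), so this fit cannot tell vector and background apart.

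Oprk1 had 19.0, 25.8, 19.1 and 20.5 CPM in D2 female EGFP and 35.9, 23.7, 45.6 and 27.2 CPM in D2 female RXRa. In males it had 13.4, 28.5, 25.4, 24.0 and 24.3 CPM under EGFP and 16.3, 29.0, 48.8 and 32.5 CPM under RXRa. In each sex 3 of 4 RXRa libraries lay above every EGFP library, and the spread under RXRa was the wider. Over both sexes the log2 fold change was 0.55 (SE 0.16, edgeR adjusted p 0.0188), a rise of 46.3%. The call was lost without female RXRa 4 (0.43, adjusted p 0.0853), male RXRa 3 (0.38, adjusted p 0.0691) or male RXRa 5 (0.52, adjusted p 0.0542), and with D1 and D2 fitted apart (0.58, adjusted p 0.0574).

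Oprl1 had 6.54, 9.80, 8.12 and 6.77 CPM in D2 female EGFP and 11.6, 7.77, 11.3 and 7.05 CPM in D2 female RXRa. In males it had 5.72, 8.19, 5.88, 6.65 and 8.88 CPM under EGFP and 6.86, 9.57, 11.3 and 14.6 CPM under RXRa. Female RXRa 2 and 4 and male RXRa 2, 3 and 5 exceeded every EGFP library of their sex. The log2 fold change over both sexes was 0.42 (SE 0.13, edgeR adjusted p 0.0233). That call was lost without female EGFP 1 (0.38, adjusted p 0.0533), female EGFP 5 (0.39, adjusted p 0.0536), female RXRa 2 (0.37, adjusted p 0.0516), female RXRa 4 (0.35, adjusted p 0.0898) or male RXRa 5 (0.31, adjusted p 0.0925). It was also lost with library totals only (0.24, adjusted p 0.088) and with D1 and D2 fitted apart (0.45, adjusted p 0.0654).

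Oprd1 had 28.0, 24.2, 23.9 and 24.5 CPM in D2 female EGFP and 25.7, 24.1, 34.8 and 34.9 CPM in D2 female RXRa. In males it had 24.7, 25.6, 28.6, 23.5 and 29.3 CPM under EGFP and 28.4, 33.5, 31.3 and 34.8 CPM under RXRa. Among females RXRa 4 and 5 stood apart from the other two, while among males 3 of 4 RXRa libraries exceeded every control. The log2 fold change over both sexes was 0.27 (SE 0.07, edgeR adjusted p 0.016). It was no longer called without female RXRa 4 (0.21, adjusted p 0.0856), female RXRa 5 (0.20, adjusted p 0.0554) or male RXRa 5 (0.23, adjusted p 0.0644), nor with library totals only (0.09, adjusted p 0.379).

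Oprm1 had 144.6, 158.5, 146.6 and 162.0 CPM in D2 female EGFP and 176.1, 162.8, 205.9 and 153.2 CPM in D2 female RXRa. In males it had 158.8, 160.9, 152.1, 142.8 and 153.6 CPM under EGFP and 155.2, 143.5, 174.4 and 188.9 CPM under RXRa. It narrowly missed the threshold, at 0.15 on the log2 scale (SE 0.06, edgeR adjusted p 0.0508), and with library totals only the sign turned (-0.02, adjusted p 0.696). DESeq2 called it (0.18, adjusted p 0.0193), as did edgeR with DESeq2's size factors (0.18, adjusted p 0.0368) and with a mean CPM of at least 1 (0.14, adjusted p 0.0384). It was called without female EGFP 3 (adjusted p 0.0493), female RXRa 3 (0.0283), female RXRa 5 (0.0401), male EGFP 4 (0.0489), male RXRa 1 (0.0284) or male RXRa 2 (0.0241), and had an adjusted p of 0.251 without female RXRa 4 and 0.207 without male RXRa 5.

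Single libraries weighed on these values, and the part of their background in this was not tested. D2 female RXRa 4 had the lowest silent-gene density of all sorted libraries, 0.303 CPM per kb, the highest Oprm1 level, 205.9 CPM, and the second highest Oprk1 level, 45.6 CPM. Without it no gene was called in D2 by edgeR, against 9683 with it. The number was 1633 without male RXRa 5, 5794 without female EGFP 5, 6102 without male RXRa 3, 6420 without female EGFP 1 and 14766 without male RXRa 1. D2 male RXRa 5 had the next lowest density, 0.333 CPM per kb, and the highest Oprl1 level, 14.6 CPM. The highest Oprk1 level, 48.8 CPM, was in D2 male RXRa 3, at a density of 0.409 CPM per kb. D1 female RXRa 1, at 0.371 CPM per kb, had the lowest Oprm1 level of all sorted libraries, 142.6 CPM. Within each sex no receptor gene was called by edgeR, and neither was any other gene (0% of genes), although 25.2% of genes in D2 females and 19.7% in D2 males had an unadjusted p under 0.05; DESeq2 called 3672 and 23 genes there, with Oprk1 (0.69, adjusted p 0.036) and Oprm1 (0.23, adjusted p 0.0492) among those in females. In males edgeR with 1 surrogate variable called Oprl1 (0.58, adjusted p 0.0114). Without female RXRa 3, edgeR called Oprk1 (0.78, adjusted p 0.0314) and Oprd1 (0.34, adjusted p 0.0322) in females, and without male RXRa 1, Oprk1 (0.67, adjusted p 0.0337), Oprl1 (0.73, adjusted p 0.0173) and Oprd1 (0.33, adjusted p 0.0397) in males. Within each sex the EGFP and RXRa libraries of every receptor gene overlapped, in D1 and in D2; groups did not overlap in 6.08% of genes in D2 females, 2.6% in D2 males, 2.47% in D1 females and 1.29% in D1 males. In D2 females the log2 fold changes were 0.65 for Oprk1, 0.28 for Oprl1, 0.25 for Oprd1 and 0.19 for Oprm1. In D2 males they were 0.44, 0.56, 0.28 and 0.11 in the same order.

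Markers of D1, D2 and striatal projection neurons moved with RXRa in the same D2 libraries. No marker of any list was at 0 in every library of a group. The 5 D2 markers summed to 761.7 to 1472 CPM under EGFP and 889.7 to 2743 CPM under RXRa, and the 4 markers of striatal projection neurons to 338.6 to 658.7 and 354.0 to 1022 CPM. The 5 D1 markers summed to 121.7 to 159.4 and 115.8 to 226.6 CPM, with 2 of 5 called higher in D2, Drd1 by 0.89 (SE 0.25, edgeR adjusted p 0.0173) and Tac1 by 0.74 (SE 0.24, adjusted p 0.0287), and Eya1 called lower, at -0.16 (SE 0.06, adjusted p 0.0459). Of the D2 markers 4 of 5 were called higher, Drd2 by 0.75 (SE 0.16, adjusted p 0.0111). Called higher too were 3 of 4 projection neuron markers, 3 of 3 matrix markers, 1 of 4 patch markers and 1 of 3 claustrum and endopiriform markers. No cholinergic (0 of 4) or GABA interneuron marker (0 of 5) was called, and 1 of 4 cortical excitatory markers was called lower. Glial markers were called too: 1 of 4 astrocyte markers was lower, and of 4 microglia markers 1 was higher and 1 lower. Over all genes, 14.9% were called higher and 7.14% lower. Astrocyte markers summed to 123.5 to 179.8 CPM under EGFP and 105.5 to 143.7 CPM under RXRa, and oligodendrocyte markers to 125.6 to 257.3 and 130.4 to 198.1 CPM. Their part in the receptor values was not tested.

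**Figure D2:**
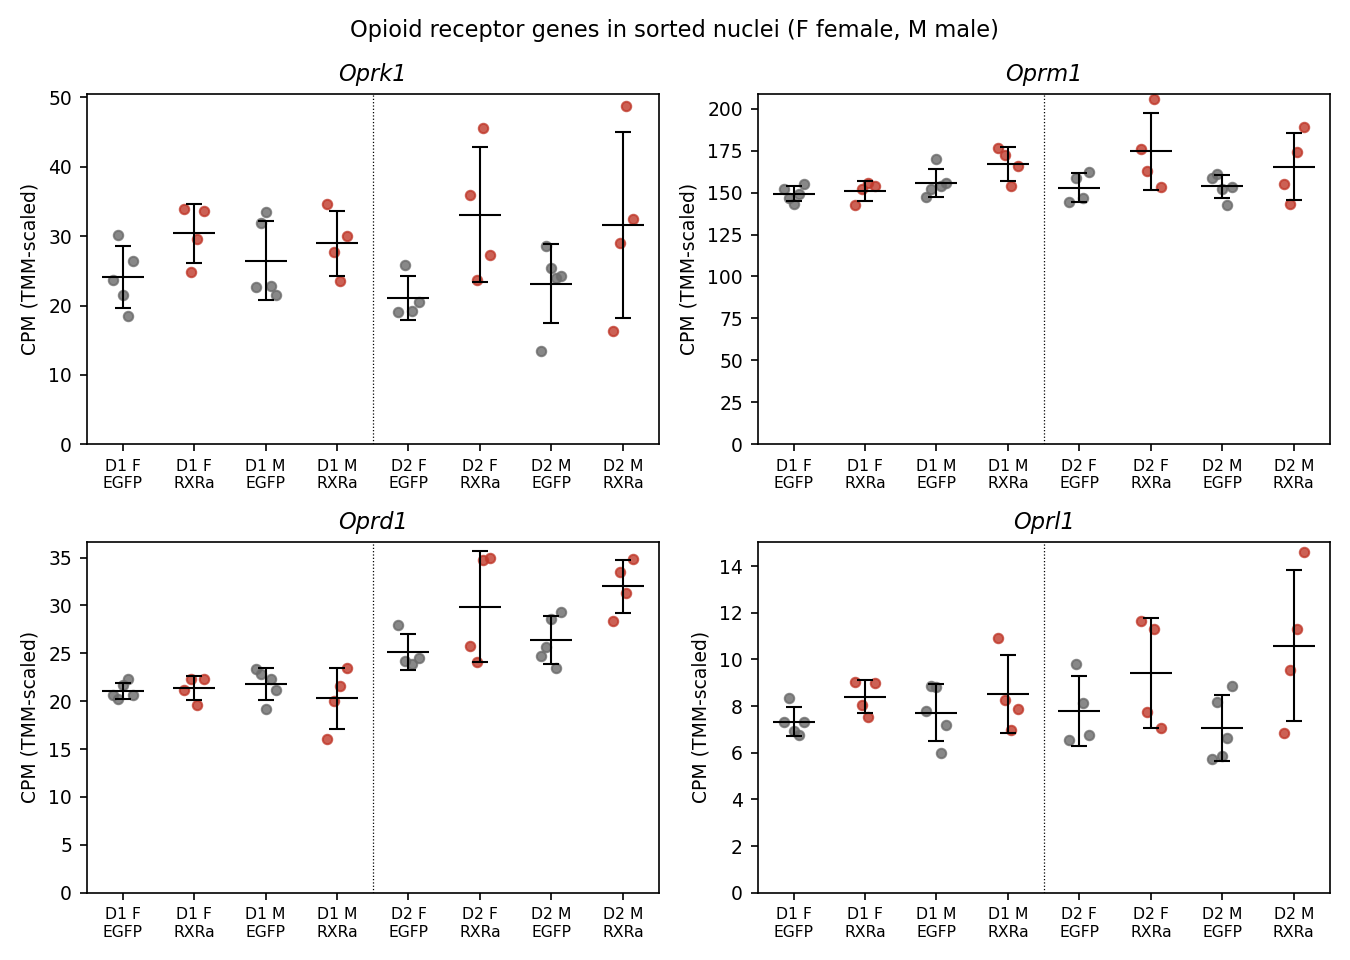
CPM of each receptor gene (y axes, from 0, TMM-scaled) in the 35 sorted libraries, by population, sex and vector (x axis). Points are libraries and bars the mean ± SD of 4 or 5; Oprd1 lies at 23.5 CPM or less in all D1 groups and above that in all D2 groups, and the RXRa groups of D2 spread more widely than their controls.

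Each receptor was also measured relative to the background of its own library, as CPM per kb of gene body over the silent-gene density. The ratio passed the test with RXRa for 4 of 4 receptor genes in D2 nuclei and for Oprm1 in D1 nuclei (exact two-sided permutation within sex, Benjamini-Hochberg over 12 tests). The denominator is shared by all genes: of 42801 genes with a count in every library, 34.1% stood higher in D2 and 17.4% in D1 at an unadjusted exact p under 0.05, and the median log2 ratio over them moved by 0.17 and 0.11. CPM of library totals, the numerator alone, passed for none of the 4 in either population (lowest adjusted exact p 0.317). The numerator of Oprm1 differed by -0.02 on the log2 scale in D2 and -0.01 in D1, and the log2 denominator differed by -0.38 and -0.19. In D2 the numerator differed by 0.34 for Oprk1, 0.24 for Oprl1 and 0.09 for Oprd1. In D2, Oprk1 stood at 2.38 ± 0.5 times the silent density under EGFP (SD, n = 9) and 4.09 ± 1.6 times under RXRa (SD, n = 8), with an exact permutation p of 0.0112, adjusted to 0.0269. Oprl1 went from 2.35 ± 0.497 to 3.75 ± 1.32 times (exact p = 0.00964, adjusted 0.0269) and Oprd1 from 1.45 ± 0.186 to 2.04 ± 0.503 times (exact p = 0.00646, adjusted 0.0259). Oprm1 went from 1.03 ± 0.0578 to 1.35 ± 0.298 times, with an exact p of 0.00034, adjusted to 0.00408, where the permutations cannot go below 0.000113. Under EGFP, then, Oprm1 lay within 0.926 and 1.14 times the silent density in every D2 library, and under RXRa between 1.08 and 1.91 times.

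In D1, Oprm1 went from 1.07 ± 0.0706 (SD, n = 10) to 1.22 ± 0.131 times (SD, n = 8), with an exact permutation p of 0.0137, adjusted to 0.0275. The adjusted p rose to between 0.0501 and 0.0649 without female RXRa 1, female RXRa 5, male EGFP 4, male RXRa 1 or male RXRa 5. Oprk1 stood at 2.82 ± 0.64 under EGFP and 3.66 ± 0.909 times under RXRa and Oprl1 at 2.49 ± 0.386 and 3.07 ± 0.691 times, with adjusted exact p-values of 0.0736 for both, and Oprd1 at 1.25 ± 0.0842 and 1.33 ± 0.239 times, with 0.446. Oprk1 passed without female RXRa 2 (adjusted p 0.0459), male EGFP 2 (0.0426), male EGFP 3 (0.0439) or male RXRa 3 (0.031), and Oprl1 without female RXRa 4 (0.0493), male EGFP 2 (0.0444) or male RXRa 3 (0.031). In D2, Oprk1 did not pass without male RXRa 3 (0.0612) or male RXRa 5 (0.051), nor Oprl1 without male RXRa 5 (0.051).

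**Figure D3:**
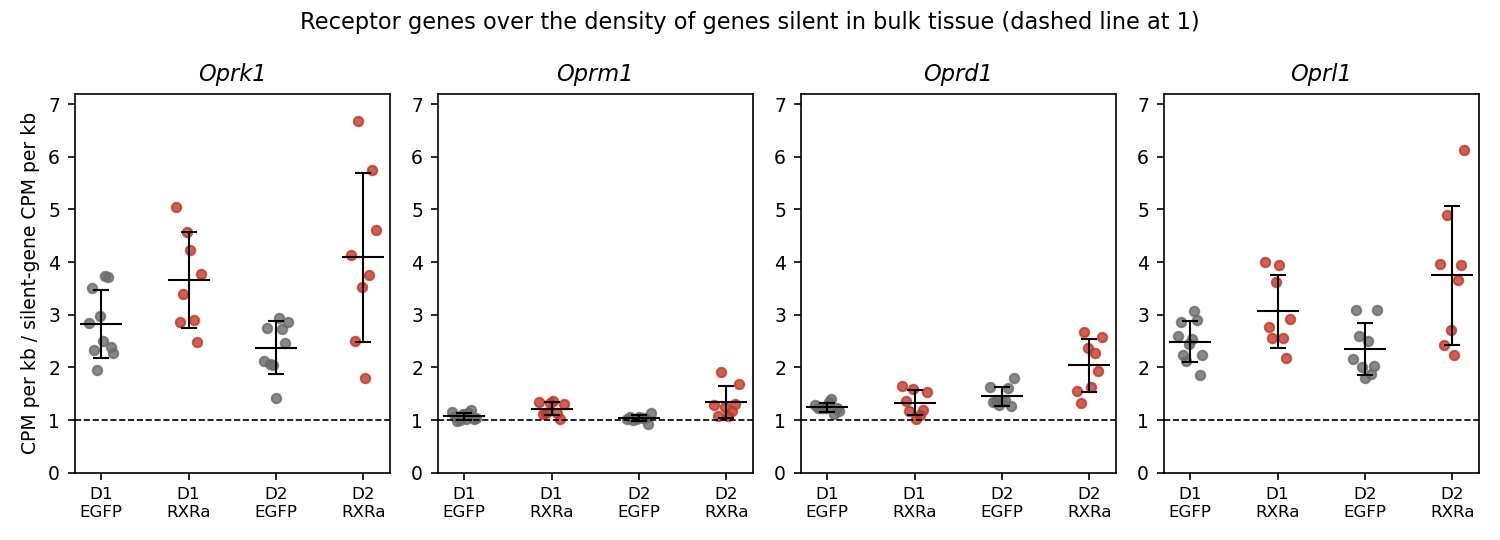
Density of each receptor gene in CPM per kb of gene body over the silent-gene density of the same library (y axis, ratio, dashed line at 1), by population and vector (x axis). Points are libraries of both sexes and bars the mean ± SD; Oprm1 lies near 1 in both EGFP groups, and the D2 RXRa groups reach 6.68 for Oprk1 and 6.13 for Oprl1.

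The delta receptor gene Oprd1 was the member that separated D2 from D1 nuclei. Across all vectors its 18 D1 libraries lay between 16.1 and 23.5 CPM and its 17 D2 libraries between 23.52 and 34.9 CPM, without overlap, though the nearest libraries, D1 male RXRa 5 and D2 male EGFP 4, almost met. The share of all genes without overlap was counted within each vector only. Under EGFP, 10 D1 libraries had 19.2, 21.4 and 23.4 CPM (lowest, median, highest) and 9 D2 libraries had 23.5, 24.7 and 29.3 CPM, where 0.134% of genes had groups that did not overlap. The log2 fold change was 0.26 (SE 0.07), and edgeR did not call it (adjusted p 0.176), where it called 0.121% of genes; with the silent-gene density as a covariate it did (0.28, adjusted p 0.0365). Relative to the silent density the log2 difference was 0.20, a ratio of 1.15, and the exact permutation p, two-sided, was 0.00283, adjusted to 0.017, where 2.27% of genes stood higher at an unadjusted p under 0.05. The numerator alone differed by 0.27 (exact permutation p 0.000441, adjusted 0.00529). Under RXRa, whose libraries are not shared with that comparison, D1 had 16.1, 21.4 and 23.5 CPM and D2 24.1, 32.4 and 34.9 CPM, 8 libraries each, where 0.125% of genes did not overlap. There Oprd1 was called higher in D2 (log2 fold change 0.57, SE 0.08, edgeR adjusted p 1.77e-05), among 8.36% of genes called. It was called in all 8 other settings tried and in each of 35 fits without 1 library, with log2 fold changes from 0.47 to 0.62.

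None of the other three genes was called in either comparison of D2 with D1. Under EGFP the log2 fold changes were -0.19 (SE 0.15, edgeR adjusted p 0.662) for Oprk1, -0.02 (SE 0.12, adjusted p 0.972) for Oprl1 and 0.01 (SE 0.05, adjusted p 0.982) for Oprm1. Oprk1 was lower in D2 with 1 surrogate variable (-0.59, adjusted p 0.0349). The signs of Oprl1 and Oprm1, both within 0.02 of 0, turned in 7 and 13 of the 35 fits without 1 library. Under RXRa they were 0.12 (SE 0.16, adjusted p 0.687) for Oprk1, 0.23 (SE 0.13, adjusted p 0.257) for Oprl1 and 0.10 (SE 0.06, adjusted p 0.286) for Oprm1; that of Oprk1 was -0.05 without D2 male RXRa 3, -0.06 with the silent-gene density and -0.19 with 1 surrogate variable.

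Whether RXRa acted differently on a receptor gene in D2 than in D1 was tested as an interaction. No gene was called (0% of 43902) by edgeR or DESeq2, and 3609 had an unadjusted p under 0.05. The difference of the log2 fold changes, D2 minus D1, was 0.31 (SE 0.10, edgeR adjusted p 0.601) for Oprd1, 0.31 (SE 0.22, adjusted p 0.637) for Oprk1, 0.25 (SE 0.18, adjusted p 0.637) for Oprl1 and 0.09 (SE 0.08, adjusted p 0.69) for Oprm1. The calls in D2 and their absence in D1 are thus not shown to differ. Male and female controls gave receptor log2 fold changes between -0.04 (Oprl1) and 0.13 (Oprk1), each with an edgeR adjusted p of 0.9999, where 4.43% of genes were called, 1.01% higher and 3.43% lower in males.

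**Figure D4:**
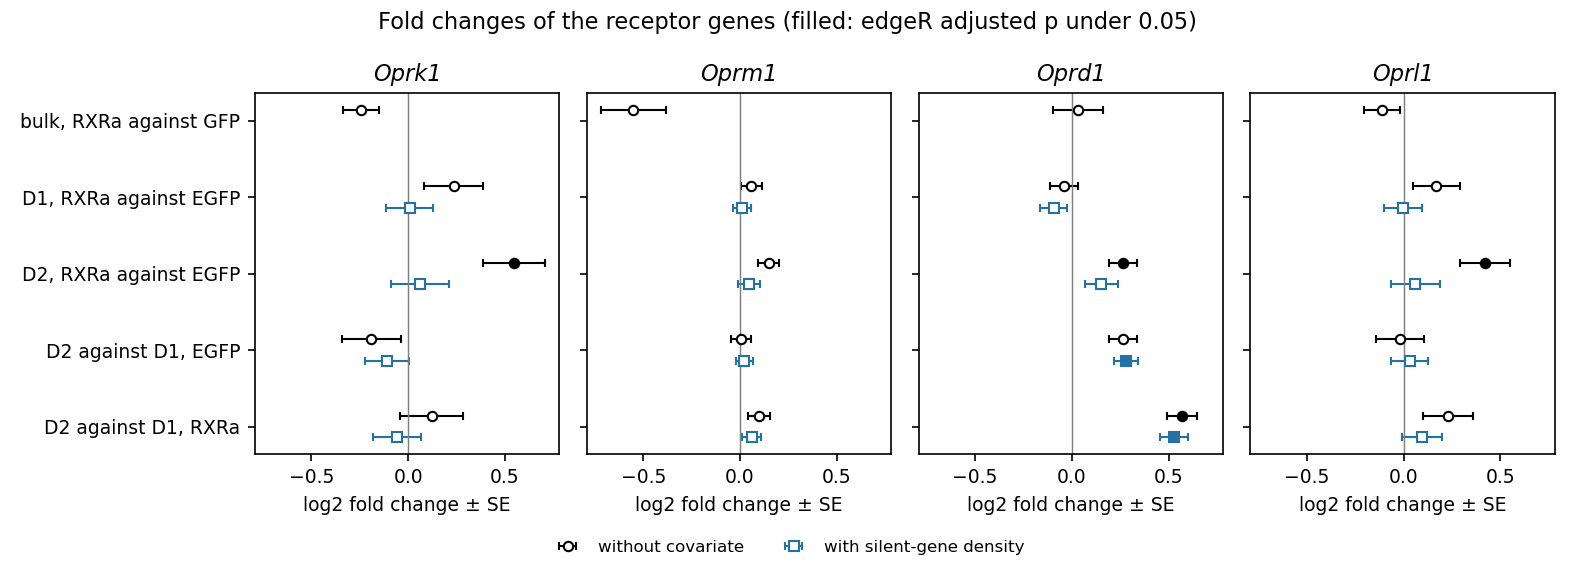
Log2 fold change ± SE (x axis) of each receptor gene in 5 comparisons (y axis), without a covariate (circles) and, in sorted nuclei, with the silent-gene density of each library as one (squares); filled symbols have an edgeR adjusted p under 0.05. In D2, RXRa against EGFP, Oprk1 moves from 0.55 to 0.06 and Oprl1 from 0.42 to 0.06 with the covariate, while D2 against D1 under RXRa stays at 0.57 and 0.53 for Oprd1. In D2 the covariate itself differed with the vector, so that fit cannot tell vector and background apart.

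The peptides that act on these receptors were measured in the same libraries. Penk, the precursor of enkephalins, and Pdyn, the precursor of dynorphins, separated the populations: under EGFP Penk was higher in D2 nuclei by 2.73 on the log2 scale (SE 0.33, edgeR adjusted p 4.27e-06) and Pdyn lower, at -1.77 (SE 0.16, adjusted p 2.87e-09). Under RXRa the same differences were 2.67 (SE 0.36, adjusted p 2.8e-05) and -1.65 (SE 0.17, adjusted p 5.49e-08). Pnoc, the nociceptin precursor, had -0.14 under EGFP (adjusted p 0.456) and -0.16 under RXRa (adjusted p 0.135), and Pomc, the precursor of beta-endorphin, -0.04 (adjusted p 0.893) and -0.02 (adjusted p 0.93). In bulk, Penk had 1072 ± 91.3 CPM under GFP and 948.7 ± 53.4 CPM under RXRa and Pdyn 329.8 ± 42.1 and 301.3 ± 33.5 CPM (SD, n = 4). Pomc and Pnoc were near 2 CPM there, at 2.39 ± 0.531 and 2.14 ± 1.14 CPM under GFP. No precursor was called with RXRa in bulk, where the log2 fold changes were -0.18 for Penk (adjusted p 0.221), -0.13 for Pdyn (0.523), -0.04 for Pomc (0.932) and 0.15 for Pnoc (0.863). Neither was one called in D1 or D2: Penk had 0.73 in D1 (adjusted p 0.595) and 0.67 in D2 (0.137), Pdyn 0.33 (0.59) and 0.45 (0.0516), Pnoc -0.08 (0.735) and -0.10 (0.294), and Pomc -0.02 (0.971) and 0.004 (0.985).

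Genes that carry the receptors' signal were counted in 8 lists of 52 genes, the precursors included, all of which were tested in both tables. In bulk, 2 of 52 were called higher and 1 lower with RXRa, against 3.01% and 0.689% of all genes, and the median log2 fold change was -0.04 against -0.02 for all genes. Adcy4, an adenylyl cyclase, rose by 0.65 (SE 0.10, edgeR adjusted p 0.013), from 5.25 ± 0.443 to 8.22 ± 0.232 CPM (SD, n = 4), and Ace, a peptidase that can cleave enkephalins, rose by 0.49 (SE 0.11, adjusted p 0.0473). Gnai1, an inhibitory G protein alpha subunit, fell by 0.30 (SE 0.05, edgeR adjusted p 0.0132), from 204.2 ± 5.63 to 165.4 ± 4.72 CPM (SD, n = 4). Without GFP 4 none of the 52 was called: Adcy4 had an adjusted p of 0.052, Gnai1 of 0.0622 and Ace of 0.157. Ace was also lost without GFP 1 (0.0786), GFP 2 (0.0967), GFP 3 (0.0697), RXRa 2 (0.0852), RXRa 3 (0.127) or RXRa 4 (0.1). DESeq2 called 5 of the 52 higher and 2 lower, and edgeR with 1 surrogate variable 7 and 4. The receptor kinase and arrestin list had 0 of 7 called, RGS proteins 0 of 10 and GIRK channels 0 of 4. The related receptors, which are the somatostatin receptor genes and Npbwr1, had 0 of 6 called and a median of -0.32.

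In D2 nuclei, 19 of the 52 were called higher with RXRa and 1 lower, against 14.9% and 7.14% of all genes, and their median log2 fold change was 0.19 against -0.04. With library totals in place of TMM, 8 were called higher and 7 lower, with a median of 0.02. All 5 Gi/o alpha subunit genes were called higher, 6 of 10 genes of RGS proteins (which shorten G protein signals) and their partners, 4 of 7 receptor kinases and arrestins, 2 of 7 peptide-processing genes and 2 of 9 adenylyl cyclases. Adcy8, an adenylyl cyclase, was the one called lower, at -0.19 (SE 0.06, edgeR adjusted p 0.0214), and is named after its value was seen. Adcy5, the main striatal adenylyl cyclase, rose by 0.66 (SE 0.18, edgeR adjusted p 0.0139), Rgs9 by 0.57 (SE 0.18, adjusted p 0.0224) and Pcsk2, a protease that processes opioid precursors, by 0.49 (SE 0.12, adjusted p 0.0125). No GIRK channel gene (0 of 4) or related receptor (0 of 6) was called. With the silent-gene density as a covariate 0 of the 52 were called, and Adcy5 had -0.02, Rgs9 -0.09 and Pcsk2 0.02, each with an adjusted p of 1. As for the receptors, that fit cannot tell vector and background apart. Without female RXRa 4 none was called (Adcy5 0.54, adjusted p 0.0673; Rgs9 0.48, 0.0869; Pcsk2 0.39, 0.0638). Without male RXRa 5, 4 were called higher (Adcy5 0.58, adjusted p 0.0515; Rgs9 0.51, 0.0678), and without male RXRa 3, 11 (Rgs9 0.47, 0.0634). D1 and D2 fitted apart gave 10 called higher (Rgs9 0.60, adjusted p 0.0518). In D1 nuclei 0 of 52 were called with RXRa, with a median of 0.03.

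Between D2 and D1 nuclei, 1 of 52 list genes was called higher and 2 lower under EGFP, against 0.0478% and 0.0729% of all genes, and 4 and 4 under RXRa, against 6.85% and 1.51%. The others called under RXRa, named after their values were seen, were Gnb5 (0.65, edgeR adjusted p 0.00911), Rgs8 (0.39, adjusted p 0.026) and Mme (0.22, adjusted p 0.0461), higher in D2, and Adcy2 (-0.21, adjusted p 0.0257) and Kcnj6 (-0.23, adjusted p 0.03), lower. With 1 surrogate variable 1 and 2 were called under RXRa, with DESeq2 9 and 4, and with the replicate block 2 and 3. Single libraries moved these counts: 18 higher and 12 lower were called without D2 male RXRa 1, 12 and 4 without D2 female RXRa 3, 8 and 4 without D2 male EGFP 4, 7 and 6 without D1 male RXRa 1, and 5 and 7 without D2 female RXRa 5. They were 2 and 2 without D2 female RXRa 2 or 4, D2 male RXRa 5 or D1 male RXRa 2, and 2 and 3 without D1 female RXRa 2 or 4, D1 male RXRa 3 or D2 male RXRa 3. Besides Penk and Pdyn, Sstr4, a somatostatin receptor gene related to the opioid receptors, was lower in D2, at -1.36 (SE 0.18, edgeR adjusted p 3.09e-05) under EGFP and -1.03 (SE 0.18, adjusted p 0.00189) under RXRa. In control nuclei it had 2.16 ± 0.521 CPM in D1 (SD, n = 10) and 0.827 ± 0.159 CPM in D2 (SD, n = 9), from as few as 8 counts a library. These 3 genes were called in both comparisons in every setting and every fit without 1 library, the silent-gene density included.

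**Figure D5:**
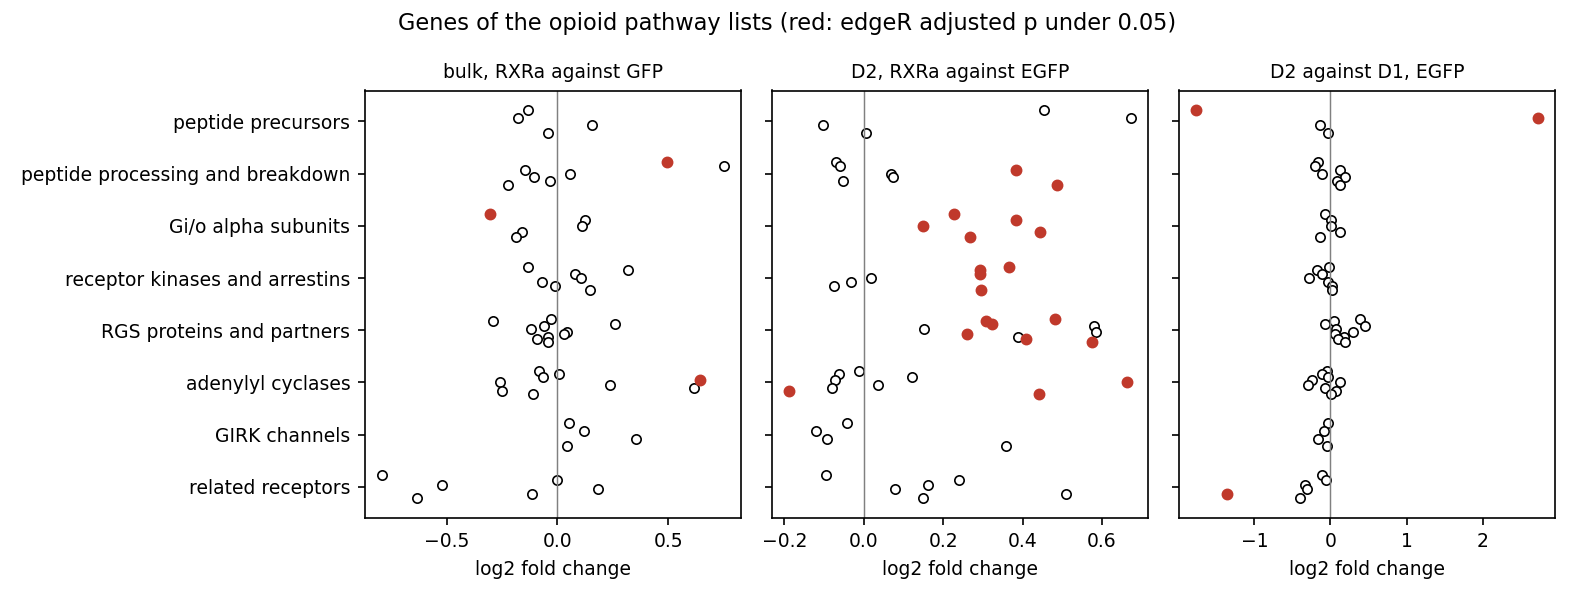
Log2 fold change (x axes, which differ in range) of the 52 genes of the 8 opioid pathway lists (y axis) in bulk, in D2 nuclei and between D2 and D1 nuclei under EGFP. Each point is a gene and red marks an edgeR adjusted p under 0.05; 3 genes are red in bulk, 20 in D2 with RXRa, and 3 between D2 and D1.

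The genes whose level followed each receptor most closely were listed as a description, from log2(CPM + 1) over 35 sorted libraries and 20159 protein-coding genes. Libraries share depth, background and scaling, and no test is attached. For Oprk1 they were Strip2 (r = 0.928), Tomm70a (0.905) and Strn (0.895), and for Oprl1 Slitrk5 (0.908), Sprn (0.906) and Wsb1 (0.905). For Oprm1 they included Cntn3 (0.909) and Cog5 (0.906). For Oprd1 they were Grik3 (0.918), Fig4 (0.867) and Kcnk2 (0.850). Over the same libraries the silent-gene density had r of -0.764 with Oprk1, -0.741 with Oprl1, -0.557 with Oprm1 and -0.375 with Oprd1. Between receptors, r was 0.755 for Oprk1 and Oprl1, 0.628 for Oprm1 and Oprl1 and 0.542 for Oprk1 and Oprm1, and between 0.112 and 0.241 for Oprd1 with the others. Over the 8 bulk libraries and 14236 genes the closest were Nlgn3 (0.973), Isca1 (0.971) and Rnf103 (0.963) for Oprk1, Zkscan16 (0.980), Gm20075 (0.976) and Gabrg1 (0.976) for Oprm1, Gnb5 (0.932), Elmo2 (0.929) and Inka2 (0.926) for Oprd1, and Ppp1r26 (0.972), Pcdhgb1 (0.966) and Adamts15 (0.958) for Oprl1.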

How the data were processed

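RNA was sequenced from whole nucleus accumbens (poly(A)-selected) and from sorted D1 and D2 nuclei (ribosomal RNA removed, stranded total RNA kit), per the labels' protocols. The authors deposited 2 tables of raw counts per gene. The submitters' processing notes name GRCm38, FastQC, Trimmomatic, HISAT2, Picard, featureCounts and Subread, with no versions or roles. Whether introns or strand entered the counting is not given in the sources used here. The members and gene lists were chosen with earlier results of these data known.

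Of 44 libraries, 43 were grouped by their labels. The remaining library, whose title and vector label disagree, entered no comparison. Replicates of a group differed by more than sampling noise in all 72 pairs (chi-square per degree of freedom 1.8 to 64.6). Gene positions came from GENCODE M21, which held 55394 of 55487 identifiers.

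Each table was fitted as a whole with edgeR 4.0.16 (R 4.3.3): filterByExpr, TMM scaling, quasi-likelihood test and Benjamini-Hochberg adjustment over all genes, called at an adjusted p under 0.05. Sorted libraries were fitted together by population, sex and vector, and contrasts averaged over the sexes. CPM are TMM-scaled, and ratios to the silent genes use CPM of library totals. Ratios were tested with SciPy 1.17.1 by exact two-sided permutation within sex. The same test over all genes, and of the receptors' CPM without the denominator, was added after seeing the data. The alternatives were DESeq2 1.42.0, its size factors in edgeR, library totals, no filter, a mean CPM of at least 1, 1 surrogate variable (sva 3.50.0), a replicate block, the silent-gene density as a covariate, D1 and D2 fitted apart, silent genes of at least 20 kb or exon length in the ratios, and each library left out. Besides the members, the text names the 3 called list genes with the largest change in each comparison. It also names the genes most like each receptor across libraries, of which 1 is not reported here. The fit was tested on simulated data with the same spread for every gene and no background that differed between libraries. That test therefore does not bear on such a background.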

Additional observations from a re-analysis of the deposited data

Results flagged for a closer look

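In D2 female EGFP, Oprd1 stood at 27.98 CPM in replicate 1 and at 24.22, 23.88 and 24.47 CPM in the other three libraries. The gap of that library to its nearest neighbour was large against the range of the group. In 40 groups of 4 or 5 libraries examined this way, chance marks about 1 in 20.

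The library that entered no comparison, of D2 nuclei from a female, has a control vector in its vector label and another in its title. The vector's RXRa sequence had 188.2 CPM of its library total there, where no sorted EGFP library exceeded 0.819 CPM.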

How the results depend on the processing

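Log2 fold changes of the receptors are given for the settings that moved a sign, or a call over both sexes; calls within a sex stand in the report. In bulk, DESeq2 gave Oprm1 -0.54, and 1 surrogate variable gave Oprm1 -0.51, Oprk1 -0.26 and Oprd1 -0.0052. In D1 over both sexes, library totals gave Oprm1 -0.0146 and the density covariate Oprl1 -0.0034. In D2 over both sexes, the density covariate gave Oprk1 0.062, Oprl1 0.061 and Oprd1 0.15, library totals Oprl1 0.24, Oprd1 0.093 and Oprm1 -0.025, and D1 and D2 fitted apart Oprk1 0.58 and Oprl1 0.45. For Oprm1 there, DESeq2 gave 0.1751, its size factors 0.1757 and a mean CPM of at least 1 0.14. In D1 females, 1 surrogate variable gave Oprl1 -0.034 and Oprm1 -0.020, the density covariate Oprl1 -0.052, Oprd1 -0.060 and Oprm1 -0.054, and library totals Oprd1 -0.077 and Oprm1 -0.078. In D2 females the density covariate gave Oprl1 -0.10 and library totals Oprm1 -0.00083, and in D2 males Oprk1 -0.014 and Oprm1 -0.048. In D2 against D1 under EGFP, 1 surrogate variable gave Oprk1 -0.59 and Oprm1 -0.042, and the density covariate Oprl1 0.031 and Oprd1 0.28. Under RXRa, 1 surrogate variable gave Oprk1 -0.19 and Oprl1 -0.0073, and the density covariate Oprk1 -0.056. Library totals gave Oprm1 -0.010 in the interaction and -0.0027 between the sexes, where 1 surrogate variable gave Oprk1 -0.063. The cause of these changes was not tested.

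Leaving out 1 library at a time, Oprd1 ranged from -0.040 to 0.13 in bulk, -0.079 to 0.0041 in D1, -0.0071 to 0.052 in D1 females and 0.20 to 0.31 in D2. Oprk1 ranged from -0.33 to -0.19 in bulk, 0.38 to 0.66 in D2 and -0.047 to 0.23 in D2 against D1 under RXRa. Oprl1 ranged from 0.31 to 0.505 in D2, -0.080 to 0.020 in D2 against D1 under EGFP and -0.087 to 0.024 between the sexes. Oprm1 ranged from -0.0028 to 0.044 in D1 females, 0.087 to 0.18 in D2 and -0.0079 to 0.023 in D2 against D1 under EGFP. The log2 ratios to silent genes ranged in D1 from 0.30 to 0.44 (Oprk1), 0.21 to 0.35 (Oprl1) and 0.15 to 0.22 (Oprm1), and in D2 from 0.59 to 0.89 (Oprk1) and 0.50 to 0.74 (Oprl1).

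The numbers of genes called moved more. They were 1619 (DESeq2) and 2816 (1 surrogate variable) in bulk, and 9 to 1016 without 1 library. In D2 they were 0 with the density covariate, 2547 with D1 and D2 fitted apart, and 0 to 14766 without 1 library. In D2 against D1 under EGFP they were 90 (DESeq2), 140 (1 surrogate variable) and 203 (density covariate). Under RXRa they were 5722, 87 and 1286 in that order, and 1114 with library totals. Without 1 library they were 118 (D2 female RXRa 4), 137 (D2 male RXRa 5), 141 (D1 male RXRa 3), 151 (D2 female RXRa 2), 153 (D2 male RXRa 3), 182 (D1 male RXRa 2), 214 (D1 female RXRa 4), 297 (D1 female RXRa 2), 357 (D1 female RXRa 5), 1102 (D1 male RXRa 5), 5819 (D2 female RXRa 5), 6787 (D1 male RXRa 1), 6915 (D2 female RXRa 3) and 9886 (D2 male RXRa 1).

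Libraries with the same replicate number were compared between the vectors, within each population and sex only. Their deviations correlated above 0.1 in 2 of 4 bulk pairs and 6 of 15 sorted pairs. In 1 of 4 and 4 of 15 pairs the best correlation was with the library's own number. The lowest and highest r were -0.596 and 0.572 (bulk pairs), and -0.514 and 0.717 (sorted pairs). Same-numbered libraries of D1 and D2, or of females and males, were not compared. What such libraries share besides the number was therefore not tested. With the replicate block no receptor call changed. Genes called went from 687 to 0 in bulk, where Adcy4, Ace and Gnai1 then had adjusted p-values of 0.0662, 0.104 and 0.0676, from 9683 to 8535 in D2, and from 53 to 63 (EGFP) and 3671 to 236 (RXRa) between D2 and D1. Depth limits Oprm1 in bulk, at 115 to 268 counts a library.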

Other observations

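In the library that entered no comparison, Oprk1 had 22.1 CPM of the library total (345 counts), Oprm1 158.3 (2474 counts), Oprd1 32.5 (508 counts) and Oprl1 8.77 (137 counts). Over its silent-gene density of 0.505 CPM per kb, Oprk1 stood at 2.48, Oprm1 at 1.12, Oprd1 at 1.91 and Oprl1 at 2.91 times.

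The background of sorted libraries was also read on the X chromosome. Over 118 X-linked silent genes the density was 0.2 ± 0.0301 CPM per kb in males (SD, n = 18) and 0.404 ± 0.0701 in females (SD, n = 17), a ratio of 0.496. Over the autosomal silent genes it was 0.502 ± 0.0703 and 0.493 ± 0.0823 CPM per kb, a ratio of 1.02.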
